A study of Mus musculus with 15 samples.

Results

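The comparison described here set bone marrow-derived macrophages (BMDMs) stimulated with disulfide HMGB1 (dsHMGB1) against BMDMs stimulated with LPS and interferon gamma (LPS/IFNγ), the classical M1 stimulus. Its members were the 3 dsHMGB1 and the 3 LPS/IFNγ libraries, 6 of the 15 libraries sequenced, taken by their labels, and protein-coding genes were the main set. The study compared redox forms of HMGB1 with LPS and LPS/IFNγ by RNA sequencing after 24 h of stimulation, with PBS as the control. Cells came from the hind limb marrow of wild-type female C57BL/6NTac mice, matured with 10 ng/mL M-CSF (10 days of culture in the labels), and the cells of 5 mice were pooled before seeding. The replicates of a group were therefore technical, and every standard error and adjusted p below covers the spread between cultures and libraries, not the spread between mice. The dsHMGB1 group received 5 µg/mL of the disulfide protein, in which a pair of cysteines is joined. The LPS/IFNγ group received 20 ng/mL IFNγ with LPS at 1000 ng/mL by the treatment field of the labels and 100 ng/mL by their protocol text. PBS cells received neither ligand, cells of the frHMGB1 group received 5 µg/mL fully reduced HMGB1, and cells of the LPS group received 1000 ng/mL LPS alone. Because the groups differed both in the ligand and in the presence of IFNγ, the effects of the ligand and of IFNγ cannot be told apart in this comparison.

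HMGB1 is a nuclear DNA-binding protein that acts as a danger signal once outside the cell, and its disulfide form signals through TLR4 and its partner MD-2, the receptor complex that also senses LPS. TLR4 drives NF-κB through MyD88 and, through TRIF, the production of type I interferon. IFNγ acts on its own receptor, which signals through JAK kinases to GAS elements of DNA, and it is the cytokine best known for inducing guanylate-binding proteins, immunity-related GTPases, the chemokine CXCL9 and the MHC class II transactivator in macrophages.

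The deposited counts summed to 65905281, 79899533 and 69342747 in dsHMGB1 replicates 1, 2 and 3 and to 68552023, 69321128 and 80925478 in those of LPS/IFNγ. Depth thus overlapped between the groups. Of 51763 genes in the table, 16919 passed a filter on low counts and were tested, and 13025 of these were protein-coding. Replicates had a Pearson correlation across genes of 0.9885 to 0.9919 in dsHMGB1 and of 0.9913 to 0.992 in LPS/IFNγ (log2 CPM). The chi-square statistic per degree of freedom between pairs of replicates, whose counts it compares as Poisson counts, was 86.63, 48.59 and 22.94 in dsHMGB1, against a range from 4.466 to 5.322 for LPS/IFNγ pairs. In dsHMGB1, replicate 1 stood somewhat apart from the others, with 1.92% of its counts on ribosomal protein genes against 1.41% and 1.56%, and the LPS/IFNγ libraries had 1.27% to 1.32%. The part of the ribosomal protein difference in the results was not tested, and calls that changed without dsHMGB1 replicate 1 are given below.

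The macrophage label was checked against 12 macrophage markers, all of which were tested. Their summed level was 21892, 20300 and 21425 CPM (counts scaled to the library total) in dsHMGB1 and 14994, 14617 and 14909 in LPS/IFNγ, and *Lyz2*, the lysozyme gene of myeloid cells, was the most abundant. Markers of other cells were low: neutrophil genes reached 97.7 to 108 CPM in dsHMGB1 and 65.1 to 66.7 in LPS/IFNγ, nearly all from *Csf3r*, with *Ly6g*, *S100a9*, *Mpo*, *Ngp* and *Retnlg* at 0 counts in the 6 libraries. T and NK cell genes reached 17.3 to 21.4 CPM and 14.4 to 16.4 CPM, nearly all from *Cd4*, with *Cd3d*, *Cd3e*, *Cd3g*, *Cd8a*, *Ncr1* and *Nkg7* at 0. B cell genes summed to 11.5 to 13 CPM and 8.05 to 9.23 CPM (most from *Ighm*), mast cell genes to 2.69 to 3.49 CPM and 1.68 to 1.72 CPM (most from *Kit*, with *Mcpt4*, *Fcer1a* and *Ms4a2* at 0), and erythroid genes to at most 0.115 CPM, with all 4 globin genes at 0. Fibroblast genes took 216 to 268 CPM and 229 to 233 CPM, with *Col1a1* the most abundant, and osteoclast genes 136 to 164 CPM and 159 to 164 CPM, with *Acp5* the most abundant. The 6 dendritic cell genes summed to 4.25, 3.35 and 3.74 CPM in dsHMGB1 and 14.8, 13.8 and 15 CPM in LPS/IFNγ, with *Xcr1* the most abundant and *Siglech* at 0. All 3 that were tested (*Zbtb46*, *Clec9a* and *Xcr1*) were lower in dsHMGB1 than in LPS/IFNγ, and PBS had 5.17, 4.11 and 4.57 CPM, near the dsHMGB1 level. CPM take no account of the shift between scalings described for the counts of called genes, so the tests of single markers are given too. Of the macrophage markers, 3 were called higher, *Cebpa* and *Csf1r* among them, and *Mertk* and *Maf* lower, with a median log2 fold change of 0.262 (7 higher and 1 lower with scaling by library size, 7 and 2 without PBS replicate 3). The call of *Maf* was lost without dsHMGB1 replicate 1 or 3 (adjusted p = 0.177 and 0.137) or LPS/IFNγ replicate 1, 2 or 3 (0.0878, 0.0933 and 0.128). Of the fibroblast genes *Pdgfrb* was higher and *Col3a1* and *Dcn* lower (2 higher and 0 lower with scaling by library size, 2 and 4 without PBS replicate 3), but *Col3a1* lost its call without dsHMGB1 replicate 1 or 2 (0.0695 and 0.0556) and *Dcn* without dsHMGB1 replicate 1 or LPS/IFNγ replicate 1 (0.0828 and 0.0826). Among osteoclast genes *Dcstamp* was higher and *Acp5* lower. The neutrophil gene *Camp* was higher, a call lost without dsHMGB1 replicate 1 or LPS/IFNγ replicate 2 or 3 (0.0604, 0.0788 and 0.0839), and its edgeR log2 fold change of 3.14 became 3.91 without LPS/IFNγ replicate 1. The B cell gene *Cd79b* was lower, a call lost without dsHMGB1 replicate 2 or 3 or LPS/IFNγ replicate 1 (0.073, 0.0683 and 0.0827). With all libraries *Lyz2*, *Csf3r*, *Ighm*, *Kit*, *Col1a1* and *Cd4* were not called. Without PBS replicate 3, *Lyz2* (adjusted p = 0.000674), *Csf3r* (1.19e-05), *Ighm* (0.0367) and *Kit* (0.0021) were called higher and *Col1a1* (6.29e-05) lower. In bulk RNA, fewer cells of a type and less RNA per cell cannot be told apart.

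Genes counted as called when edgeR's quasi-likelihood test left them with an adjusted p under 0.05, the adjustment running over all genes tested. Of the protein-coding genes, 2517 (19.3%) were called higher and 2490 (19.1%) lower in dsHMGB1, and over all gene types the numbers were 2797 (16.5%) and 2824 (16.7%). These percentages are the background against which the gene groups below are read. The 3 libraries of one group lay entirely above or below the 3 of the other in 8516 protein-coding genes (65.4%), so that a separation of the groups was common. With the main scaling, the median log2 fold change was -0.993 for genes called lower and 0.85 for those called higher. The median over all protein-coding genes tested was 0.0271. Scaling by library size, described below, moves fold changes upward, so which direction has the larger median may depend on the scaling. Log2 fold changes are given as dsHMGB1 minus LPS/IFNγ, without shrinkage, with their standard error (SE). PBS means and SDs below include PBS replicate 3. It had 6.07% of its counts on ribosomal protein genes, against 1.93% and 1.84% in the other PBS libraries. Among protein-coding genes, 472 lay below -2 and 265 above 2, the fold limit used in the study, and the asymmetry grew with size, with 94 genes below -4 against 25 above 4 and 47 below -5 against 5 above 5. A pair of settings bears on the counts of called genes, although some gene groups had the same counts under both. Scaling by library size, added after the data were seen, moved the median from 0.0438 to 0.349 (edgeR's log2 fold changes) and the calls to 4357 higher and 1439 lower. Leaving out PBS replicate 3, which takes no part in the contrast but enters the shared estimate of the spread, the filter and the scaling, moved the median to 0.0635, left 13196 protein-coding genes to test and raised the calls to 4347 higher and 3820 lower. A gene that was not called may therefore still differ by a small amount, and the text gives such calls of named genes where 1 library decides them.

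**Figure D1:**
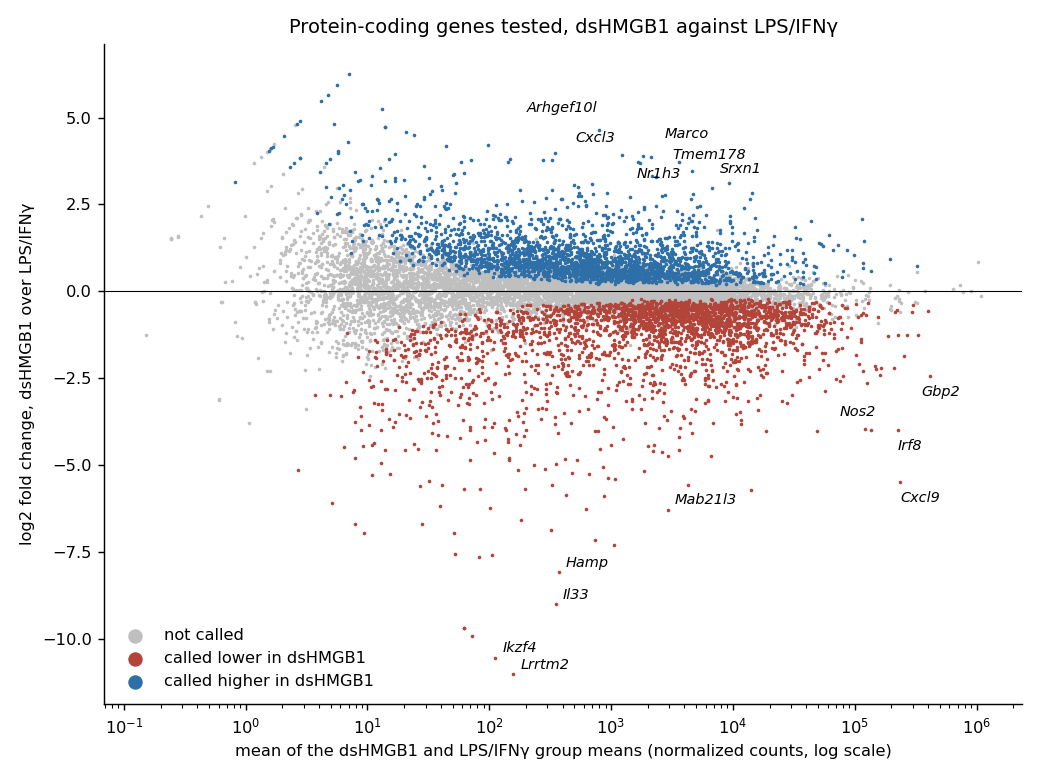
Each point is a protein-coding gene tested, with the mean of the dsHMGB1 and LPS/IFNγ group means in normalized counts (log scale) on the x axis and the log2 fold change of dsHMGB1 over LPS/IFNγ on the y axis. Blue marks the 2517 genes called higher and red the 2490 called lower in dsHMGB1 (4357 and 1439 with scaling by library size), and the red points reach farther from 0; genes at 0 in one group, such as *Lrrtm2*, are drawn at their fitted value, which is no bound.

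Among the 10 most abundant called genes with a log2 fold change past 1, the one that differed most encodes a ligand of CXCR3, the receptor that draws T cells and NK cells. *Cxcl9* (ENSMUSG00000029417, chromosome 5 from 92321347 to 92328079) had 9977, 10415 and 10249 normalized counts in dsHMGB1 and 464495, 448815 and 471211 in LPS/IFNγ (log2 fold change -5.50, SE 0.10, adjusted p = 1.74e-07). The dsHMGB1 libraries lay far below the LPS/IFNγ libraries and far above PBS, where the mean was 15.4 ± 9.62 (SD, n = 3). *Cxcl11* showed the same order, with 462, 365 and 343 normalized counts in dsHMGB1 and 5974, 5700 and 6114 in LPS/IFNγ (log2 fold change -3.93, SE 0.15, adjusted p = 6.26e-08). *Cxcl10*, the remaining ligand, had 210123, 172993 and 179495 normalized counts in dsHMGB1 and 279861, 278488 and 291244 in LPS/IFNγ. It was not called (log2 fold change -0.59, adjusted p = 0.233), although the groups did not overlap. Without PBS replicate 3 it was called lower (edgeR log2 fold change -0.56, adjusted p = 0.0188). Thus 2 of the 3 tested members were called lower and 0 higher, with a median log2 fold change of -3.93. *Cxcl11* is annotated as a polymorphic pseudogene and is therefore outside the protein-coding set. Of the 2 protein-coding members 1 was lower and 0 higher, with a median of -3.05.

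Guanylate-binding proteins, large GTPases that coat the vacuoles of intracellular pathogens, were lower in 9 of 11 tested members and higher in 1. Their median was -1.52 (8 lower and 1 higher with scaling by library size). *Gbp2* (ENSMUSG00000028270, chromosome 3 from 142620602 to 142638008), the most abundant called gene of either group with a log2 fold change past 1, had 127381, 130685 and 127602 normalized counts in dsHMGB1 and 706647, 689306 and 708351 in LPS/IFNγ (log2 fold change -2.45, SE 0.15, adjusted p = 9.16e-08), so that the groups were widely separated. *Gbp4* had 1786, 2087 and 1770 normalized counts in dsHMGB1 and 20488, 21036 and 21551 in LPS/IFNγ (log2 fold change -3.48, SE 0.47, adjusted p = 3.64e-05). *Gbp9* had 4327, 6071 and 5007 normalized counts in dsHMGB1 and 45167, 45659 and 46491 in LPS/IFNγ (log2 fold change -3.16, SE 0.25, adjusted p = 1e-06). In these genes, too, every dsHMGB1 library lay below every LPS/IFNγ library. The exception was *Gbp11*, which was higher, with 311, 329 and 333 normalized counts in dsHMGB1 and 179, 164 and 153 in LPS/IFNγ (log2 fold change 0.98, SE 0.14, adjusted p = 0.0036). It is annotated as a polymorphic pseudogene, and of the 10 protein-coding members 9 were lower and 0 higher, with a median of -1.82. The call of *Gbp7* (log2 fold change -1.21, adjusted p = 0.0204) was lost without dsHMGB1 replicate 1 or 3 (adjusted p = 0.0965 and 0.0613) or LPS/IFNγ replicate 2 or 3 (0.0577 and 0.0554). Its edgeR log2 fold change of -1.19 became -0.93 and -1.21 without those dsHMGB1 libraries and -1.16 and -1.17 without those LPS/IFNγ libraries. For this gene dsHMGB1 replicate 1 was the lowest of its group, with 8620 normalized counts against 18617 and 14008. *Gbp10* was not called (log2 fold change -1.21, adjusted p = 0.0507) and was called lower without PBS replicate 3 (adjusted p = 0.00779) or dsHMGB1 replicate 2 (0.0306).

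The immunity-related GTPases, which act on the same vacuoles, were lower in 8 of 8 tested members, with a median of -1.36. With scaling by library size 6 were called lower. *Gm12250* is annotated as a processed pseudogene, and 7 of the 7 protein-coding members were lower, with a median of -1.38. *Iigp1* (ENSMUSG00000054072, chromosome 18 from 60376027 to 60392634) had 5182, 6440 and 5489 normalized counts in dsHMGB1 and 93555, 91062 and 92523 in LPS/IFNγ (log2 fold change -4.02, SE 0.22, adjusted p = 1.04e-07). *Tgtp1* had 254, 266 and 245 normalized counts in dsHMGB1 and 3539, 3363 and 3759 in LPS/IFNγ (log2 fold change -3.80, SE 0.13, adjusted p = 2.19e-08). Both were separated by more than any difference between replicates. The smallest difference was that of *Irgm2* (log2 fold change -0.50, adjusted p = 0.0187), whose call was lost without dsHMGB1 replicate 1 (adjusted p = 0.0879) or 3 (0.0546) and without LPS/IFNγ replicate 1, 2 or 3 (0.0564, 0.0567 and 0.0681). *Tgtp1* and *Tgtp2* are near copies, and how reads common to them were counted is not given in the sources used here. In LPS against LPS/IFNγ, 6 of the 11 guanylate-binding proteins and 5 of the 8 immunity-related GTPases were called lower, and in dsHMGB1 against LPS, 4 and 7 were. Over all protein-coding genes, 12.5% were called lower in LPS than in LPS/IFNγ and 12.6% lower in dsHMGB1 than in LPS. These comparisons share the LPS and the LPS/IFNγ or dsHMGB1 libraries with each other, so their values are only set side by side.

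**Figure D2:**
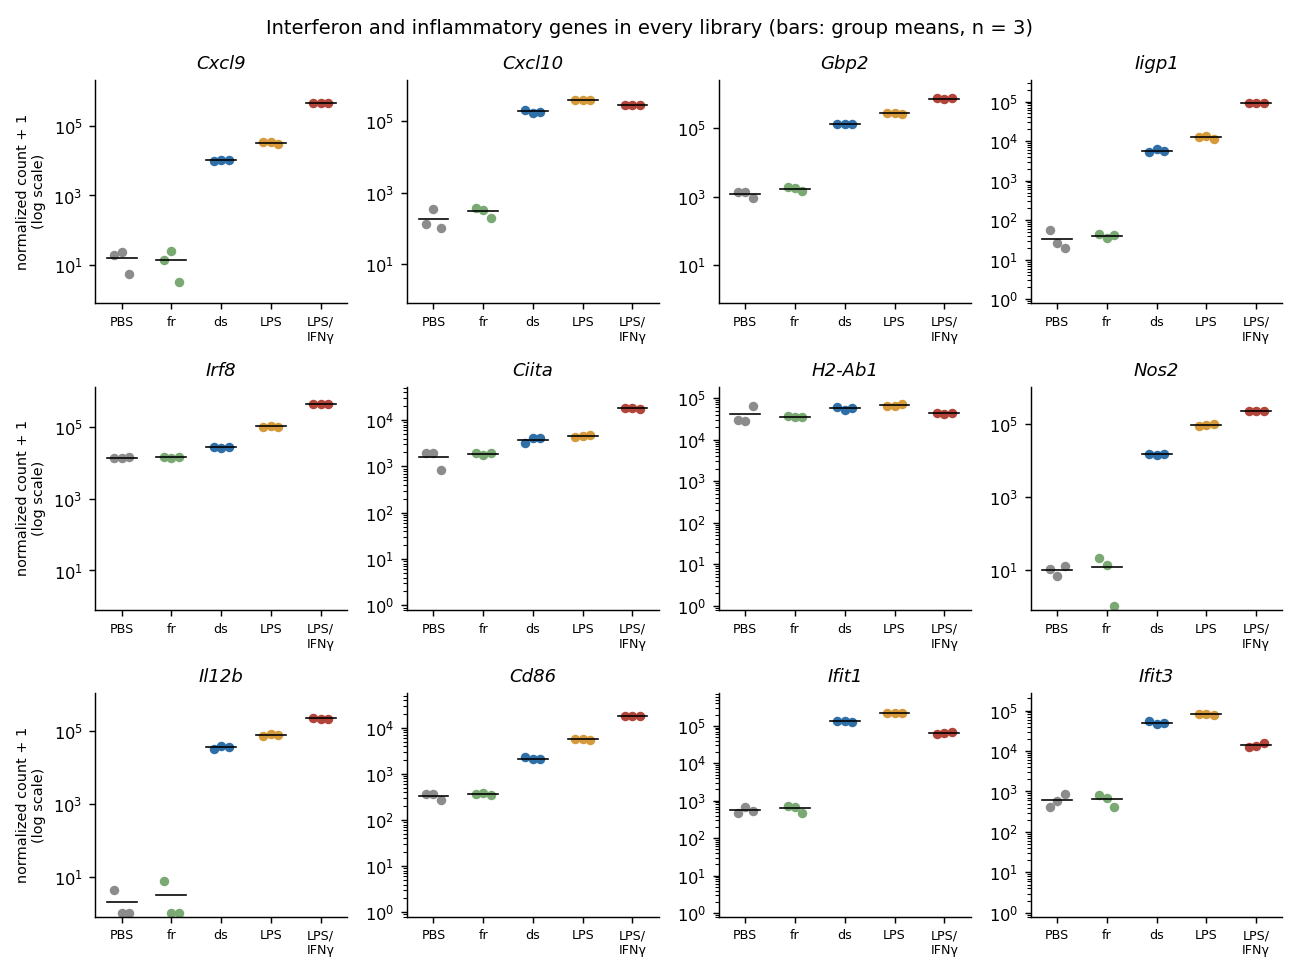
Normalized counts plus 1 (log scale) of 12 interferon and inflammatory genes in all 15 libraries, by group (fr, frHMGB1, fully reduced HMGB1; ds, dsHMGB1); points are libraries and bars are group means, n = 3. In *Cxcl9* the dsHMGB1 libraries sit at 9977 to 10415 and the LPS/IFNγ libraries at 448815 to 471211, whereas *Ifit1* and *Ifit3* are higher in dsHMGB1 and *H2-Ab1* and *Cxcl10* lie close together.

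Promoters are shown for 4 genes with a match to an interferon-linked motif, *Cxcl9*, *Gbp2b* and *Gbp7* of the groups above and *Hamp*, the gene of the iron hormone hepcidin. Promoter sequences were RefSeq's for GRCm38.p6, and the 250 bases before each gene's start were searched on both strands for the GAS core TTCNNNGAA, linked to the response to IFNγ, and for the ISRE core GAAANNGAA, linked to interferon regulatory factors. The matches in the shown promoters shared no base with one another. Of all 32851 promoters, 7.02% held a GAS core and 7.13% an ISRE core. Promoters of tested protein-coding genes held them in 6.01% and 6.49%, those of genes called lower in 7.05% and 8.44%, and those of genes called higher in 5.05% and 5.89%. Of the called genes with a log2 fold change below -2, 10.2% of promoters held a GAS core and 9.59% an ISRE core, against 6.82% and 7.73% above 2. A promoter was found for 10248 of the 13025 genes, and a match describes letters only, not binding. Capitals mark the matches, read 5′ to 3′ on the strand of the gene. The *Cxcl9* window (chr5:92328080-92328329, minus strand) holds an ISRE core 175 bases before the start. The *Gbp2b* window (chr3:142594597-142594846, plus strand) holds an ISRE core 136 bases before it. The *Gbp7* window (chr3:142530086-142530335, plus strand) holds GAS cores at 106 and 87 and an ISRE core at 52. The *Hamp* window (chr7:30944030-30944279, minus strand) holds a GAS core at 97; its last 3 bases lie in an annotated exon of GENCODE M21, while none of the other windows overlaps an exon.
Cxcl9: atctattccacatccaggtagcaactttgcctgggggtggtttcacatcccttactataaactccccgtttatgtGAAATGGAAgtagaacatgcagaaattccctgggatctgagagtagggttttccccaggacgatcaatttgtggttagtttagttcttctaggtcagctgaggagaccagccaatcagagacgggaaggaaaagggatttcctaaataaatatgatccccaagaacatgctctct
Gbp2b: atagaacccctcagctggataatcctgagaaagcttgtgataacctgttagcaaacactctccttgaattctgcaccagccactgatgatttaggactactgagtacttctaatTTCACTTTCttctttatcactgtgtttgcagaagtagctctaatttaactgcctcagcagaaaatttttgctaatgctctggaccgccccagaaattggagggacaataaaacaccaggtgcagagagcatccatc
Gbp7: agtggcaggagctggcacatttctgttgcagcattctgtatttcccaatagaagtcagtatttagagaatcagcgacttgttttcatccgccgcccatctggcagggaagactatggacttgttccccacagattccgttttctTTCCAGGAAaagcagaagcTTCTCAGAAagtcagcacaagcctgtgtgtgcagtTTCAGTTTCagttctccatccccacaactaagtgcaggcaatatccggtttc
Hamp: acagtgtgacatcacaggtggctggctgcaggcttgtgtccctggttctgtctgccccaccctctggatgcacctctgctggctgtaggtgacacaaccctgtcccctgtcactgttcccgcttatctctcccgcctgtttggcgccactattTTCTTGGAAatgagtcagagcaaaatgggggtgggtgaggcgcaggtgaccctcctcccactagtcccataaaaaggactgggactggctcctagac
Beside these windows, *Gbp2b* had 194, 109 and 108 normalized counts in dsHMGB1 and 712, 699 and 691 in LPS/IFNγ (log2 fold change -2.36, SE 0.26, adjusted p = 0.000326), and dsHMGB1 replicate 1 was the highest of its group. Matches were not limited to genes that were lower: *Rasgrp1* and *Cd300e*, both higher in dsHMGB1, hold a GAS core, *Fam117a*, also higher, an ISRE core, and *Cxcl10*, which was not called with all libraries, an ISRE core.

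Upstream of these genes, the interferon regulatory factors moved apart from one another. *Irf8* (ENSMUSG00000041515, chromosome 8 from 120736358 to 120756694), a lineage factor of macrophages and a partner of other regulatory factors, had 27770, 25771 and 27023 normalized counts in dsHMGB1 and 417447, 423263 and 439477 in LPS/IFNγ (log2 fold change -3.99, SE 0.06, adjusted p = 5.89e-12). The replicates of each group lay close together, and the PBS mean was 13807 ± 565 (SD, n = 3). *Irf4* was low in both groups, with 17.8, 31.5 and 14.3 normalized counts in dsHMGB1 and 135, 119 and 126 in LPS/IFNγ (log2 fold change -2.56, SE 0.27, adjusted p = 1.31e-05). *Irf1*, an early gene of the IFNγ response, differed less, with 99386, 83920 and 90424 normalized counts in dsHMGB1 and 138630, 140006 and 143318 in LPS/IFNγ (log2 fold change -0.62, SE 0.13, adjusted p = 0.000672). In all, 3 of 8 tested regulatory factors were lower and 2 higher with a median of -0.0937 (0.23 with scaling by library size, which turns its sign), and the higher ones fell to 1 when any of the 6 libraries was left out. Among interferon receptors and JAK-STAT genes, 6 of 12 were lower and 2 higher (median -0.457; 6 and 4 without PBS replicate 3, 5 and 4 with scaling by library size). *Ifngr1*, the ligand-binding chain of the IFNγ receptor, was among those higher, with 13007, 12985 and 13027 normalized counts in dsHMGB1 and 5343, 5511 and 5737 in LPS/IFNγ (log2 fold change 1.23, SE 0.10, adjusted p = 2.71e-06). The feedback inhibitor *Socs3* was lower, with 28456, 23807 and 25311 normalized counts in dsHMGB1 and 87767, 89570 and 87898 in LPS/IFNγ (log2 fold change -1.77, SE 0.19, adjusted p = 1.52e-05), as was *Stat3*, with 15196, 16099 and 16579 normalized counts in dsHMGB1 and 50443, 51248 and 52666 in LPS/IFNγ (log2 fold change -1.69, SE 0.14, adjusted p = 1.71e-06). The receptor chain and the signalling genes downstream of it thus did not move in a common direction.

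Genes of antigen presentation were called in both directions. *Ciita* (ENSMUSG00000022504, chromosome 16 from 10480059 to 10528418), which switches on MHC class II genes, had 3138, 4164 and 4012 normalized counts in dsHMGB1 and 17872, 18186 and 17663 in LPS/IFNγ (log2 fold change -2.25, SE 0.25, adjusted p = 1.82e-05). The class II chain *H2-Ab1* was not called, with 62342, 51085 and 56411 normalized counts in dsHMGB1 and 44210, 41874 and 44621 in LPS/IFNγ (log2 fold change 0.38, adjusted p = 0.183). Its dsHMGB1 libraries lay slightly above, and it was called higher without PBS replicate 3 (adjusted p = 2.12e-05). The invariant chain *Cd74* had 231785, 191040 and 207369 normalized counts in dsHMGB1 and 255540, 245426 and 263229 in LPS/IFNγ (log2 fold change -0.28, adjusted p = 0.401) and was called lower without that library (adjusted p = 0.00326). Of 10 tested class II genes, 1 was higher and 1 lower (5 and 3 without PBS replicate 3, 5 and 1 with scaling by library size), with a median of 0.126. Whether the other members differed from *Ciita* in their change was not tested. Class I and antigen processing genes had 5 of 15 lower and 1 higher, with a median of -0.194 that became 0.13 with scaling by library size, where 2 were lower and 3 higher (3 lower without LPS/IFNγ replicate 3, 6 higher without PBS replicate 3). *Tap1*, which carries peptides into the endoplasmic reticulum, was the lowest, with 40377, 35235 and 37356 normalized counts in dsHMGB1 and 86213, 85141 and 87747 in LPS/IFNγ (log2 fold change -1.20, SE 0.10, adjusted p = 3.86e-07). *Psmb10*, an immunoproteasome subunit, was the one called higher, with 23082, 16001 and 17366 normalized counts in dsHMGB1 and 5946, 5700 and 6130 in LPS/IFNγ (log2 fold change 1.67, SE 0.47, adjusted p = 0.0118), and dsHMGB1 replicate 1 was the highest library.

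Antiviral interferon-stimulated genes were split. Of 20 tested members, 7 were lower and 4 higher, with a median of -0.258 (0.0655, with 3 lower and 5 higher, when scaled by library size). The 19 protein-coding members (all but *Mx2*, annotated as a polymorphic pseudogene) include the same called genes and have a median of -0.351. *Ifit3*, which binds viral RNA together with other IFIT proteins, was higher, with 54112, 47838 and 49386 normalized counts in dsHMGB1 and 12659, 13249 and 16053 in LPS/IFNγ (log2 fold change 1.85, SE 0.27, adjusted p = 4.98e-05). *Ifit1*, which recognises RNA caps that lack methylation, had 136140, 133225 and 127313 normalized counts in dsHMGB1 and 60883, 63729 and 67816 in LPS/IFNγ (log2 fold change 1.04, SE 0.16, adjusted p = 0.000132), and *Rsad2*, the gene of the antiviral enzyme viperin, had 396190, 438702 and 383777 normalized counts in dsHMGB1 and 229405, 249440 and 261397 in LPS/IFNγ (log2 fold change 0.72, SE 0.18, adjusted p = 0.00581). In these 3 genes all dsHMGB1 libraries lay above all LPS/IFNγ libraries. *Oasl1* went the other way, with 13583, 12827 and 13306 normalized counts in dsHMGB1 and 34227, 34394 and 36854 in LPS/IFNγ (log2 fold change -1.41, SE 0.12, adjusted p = 9.24e-05), and *Oasl2* was lower as well (log2 fold change -1.23, adjusted p = 2.31e-05). *Isg15*, a ubiquitin-like modifier, had 48186, 35646 and 38398 normalized counts in dsHMGB1 and 86884, 84747 and 88277 in LPS/IFNγ (log2 fold change -1.09, adjusted p = 0.0306); its call was lost without dsHMGB1 replicate 2 (adjusted p = 0.1) or 3 (0.0925), without LPS/IFNγ replicate 1, 2 or 3 (0.0731, 0.0697 and 0.0763), and with scaling by library size. In dsHMGB1 against LPS, 12 of the 20 genes were called lower and 0 higher, and in LPS against LPS/IFNγ 8 were higher and 0 lower, beside 11.2% of protein-coding genes called higher and 12.5% lower in the latter and 12.3% and 12.6% in the former. These comparisons share the LPS libraries.

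Among the IL-12 family, which sets the type of T cell response, 3 of 5 tested subunits were lower and 1 higher (2 higher without PBS replicate 3 or with scaling by library size), with a median of -2.56. *Il12b*, the subunit common to IL-12 and IL-23, had 32214, 37683 and 35937 normalized counts in dsHMGB1 and 228643, 211779 and 216360 in LPS/IFNγ (log2 fold change -2.63, SE 0.09, adjusted p = 2.85e-05). *Il12a*, the partner found only in IL-12, had 1184, 1164 and 1134 normalized counts in dsHMGB1 and 6586, 6856 and 7024 in LPS/IFNγ (log2 fold change -2.56, SE 0.08, adjusted p = 5.93e-08), and *Il27* had 16209, 12108 and 12826 normalized counts in dsHMGB1 and 97258, 98709 and 103944 in LPS/IFNγ (log2 fold change -2.87, SE 0.23, adjusted p = 1.81e-06). *Il23a*, the partner that makes IL-23, was reversed: 292, 202 and 175 normalized counts in dsHMGB1 and 50.9, 48.4 and 52.1 in LPS/IFNγ (log2 fold change 2.14, SE 0.24, adjusted p = 4.34e-05). Subunits specific to IL-12 and to IL-23 thus differed in opposite directions, and both *Il12a* and *Il23a* had 0 normalized counts in PBS.

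Of 13 tested inflammatory cytokines, 9 were lower and 0 higher in dsHMGB1, with a median of -1.44. The farthest was *Il33* (ENSMUSG00000024810, chromosome 19 from 29925114 to 29960718), an alarmin of the IL-1 family, with 0, 2.93 and 0.841 normalized counts in dsHMGB1 and 732, 658 and 706 in LPS/IFNγ (log2 fold change -9.01, SE 0.66, adjusted p = 3.68e-07). It was at the limit of detection in dsHMGB1, and its fold change rested on few counts there (edgeR log2 fold change -8.88, or -10.28 without dsHMGB1 replicate 2). *Il1rn*, the IL-1 receptor antagonist, had 18699, 15240 and 14563 normalized counts in dsHMGB1 and 252419, 257539 and 264434 in LPS/IFNγ (log2 fold change -4.00, SE 0.17, adjusted p = 4.14e-09). *Il6* had 6012, 4274 and 3721 normalized counts in dsHMGB1 and 23039, 22898 and 23124 in LPS/IFNγ (log2 fold change -2.30, SE 0.21, adjusted p = 8.5e-05), and *Il1a* had 16963, 13743 and 12942 normalized counts in dsHMGB1 and 38833, 39424 and 39907 in LPS/IFNγ (log2 fold change -1.44, SE 0.40, adjusted p = 0.00901). For the last 2, LPS alone was higher than either group, with 50888 ± 2103 and 176516 ± 4253 normalized counts (SD, n = 3). *Tnf*, by contrast, differed little although it was called, with 182915, 164574 and 168672 normalized counts in dsHMGB1 and 251098, 260337 and 262076 in LPS/IFNγ (log2 fold change -0.58, SE 0.10, adjusted p = 0.000356). *Il1b* had 58184, 43704 and 47582 normalized counts in dsHMGB1 and 58672, 59667 and 60272 in LPS/IFNγ and was not called (log2 fold change -0.26, adjusted p = 0.26; adjusted p = 0.0482, lower, without PBS replicate 3). The antagonist and the agonists of the IL-1 receptor therefore differed by unlike amounts between the groups.

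Chemokines moved in both directions. Of 4 neutrophil-attracting chemokines 3 were higher and 0 lower, with a median of 1.26. *Cxcl3* (ENSMUSG00000029379, chromosome 5 from 90786103 to 90789600) had 2539, 2349 and 2061 normalized counts in dsHMGB1 and 154, 163 and 139 in LPS/IFNγ (log2 fold change 3.93, SE 0.17, adjusted p = 5.35e-06), and its LPS mean of 2323 ± 60.6 (SD, n = 3) was at the dsHMGB1 level. *Cxcl1* had 8434, 6839 and 6544 normalized counts in dsHMGB1 and 2705, 3015 and 2911 in LPS/IFNγ (log2 fold change 1.34, SE 0.14, adjusted p = 3.27e-05) and *Cxcl2* had 42722, 37453 and 35814 normalized counts in dsHMGB1 and 16493, 18098 and 16803 in LPS/IFNγ (log2 fold change 1.17, SE 0.10, adjusted p = 1.96e-06). Of 12 CC chemokines 5 were higher and 6 lower, with a median of -1.15. *Ccl17*, a ligand of CCR4, was higher from low levels, with 62.3, 31.5 and 43.7 normalized counts in dsHMGB1 and 4.24, 2.1 and 0 in LPS/IFNγ (log2 fold change 4.50, SE 0.65, adjusted p = 8.87e-05; edgeR log2 fold change 4.43, or 5.41 and 3.83 without LPS/IFNγ replicate 1 or 3). *Ccl22*, the other ligand of that receptor, went the opposite way, with 2484, 2083 and 2162 normalized counts in dsHMGB1 and 15312, 14300 and 14547 in LPS/IFNγ (log2 fold change -2.71, SE 0.09, adjusted p = 8.88e-08). *Ccl24*, which attracts eosinophils, had 14.2, 14.7 and 10.9 normalized counts in dsHMGB1 and 726, 558 and 625 in LPS/IFNγ (log2 fold change -5.58, SE 0.27, adjusted p = 1.45e-07). Monocyte-attracting *Ccl2* was lower (log2 fold change -1.38, adjusted p = 4.3e-05), and *Ccl4*, a macrophage inflammatory protein, was higher (log2 fold change 1.30, adjusted p = 0.00585), with dsHMGB1 replicate 1 the highest library.

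Nitric oxide and arginine genes had 4 of 8 members lower and 0 higher, with a median of -0.93 (3 lower and 2 higher with scaling by library size, 1 higher without PBS replicate 3). *Nos2* (ENSMUSG00000020826, chromosome 11 from 78920787 to 78960254), the inducible nitric oxide synthase, had 14937, 14512 and 14835 normalized counts in dsHMGB1 and 227012, 231907 and 229538 in LPS/IFNγ (log2 fold change -3.96, SE 0.08, adjusted p = 1.44e-06). *Slc7a2*, a transporter of its substrate arginine, had 15657, 18354 and 16167 normalized counts in dsHMGB1 and 60389, 61283 and 60026 in LPS/IFNγ (log2 fold change -1.86, SE 0.21, adjusted p = 2.29e-05). Both groups were far above the PBS means of 9.03 ± 3.07 and 945 ± 328 (SD, n = 3). *Gch1*, which makes the cofactor of the synthase, had 16745, 13771 and 14022 normalized counts in dsHMGB1 and 14675, 14755 and 15812 in LPS/IFNγ and was not called (log2 fold change -0.02, adjusted p = 0.977), but with scaling by library size it was called higher at 0.30. Costimulatory and checkpoint ligands had 5 of 10 lower and 1 higher, with a median of -0.714 (2 higher without LPS/IFNγ replicate 2 or PBS replicate 3, 4 lower and 3 higher with scaling by library size). *Cd80* and *Cd86*, ligands of CD28 on T cells, had 601, 575 and 613 and 2286, 2119 and 2067 normalized counts in dsHMGB1 and 7238, 7021 and 7110 and 17788, 17791 and 18197 in LPS/IFNγ, respectively (log2 fold changes -3.58 and -3.05, SE 0.12 and 0.09, adjusted p = 3.62e-10 and 1.86e-09). *Cd40* had 60386, 49377 and 52115 normalized counts in dsHMGB1 and 242522, 235078 and 242769 in LPS/IFNγ (log2 fold change -2.15, SE 0.28, adjusted p = 2.97e-05). All 3 separated the groups without overlap. *Icosl*, the ligand of ICOS, was the one higher, with 6551, 7464 and 7271 normalized counts in dsHMGB1 and 3558, 3528 and 3733 in LPS/IFNγ (log2 fold change 0.98, SE 0.09, adjusted p = 3.05e-05). Dendritic cell markers stood at 13.8 to 15 CPM in LPS/IFNγ, 3.35 to 4.25 CPM in dsHMGB1 and 4.11 to 5.17 CPM in PBS, and their part in these values was not tested.

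**Figure D3:**
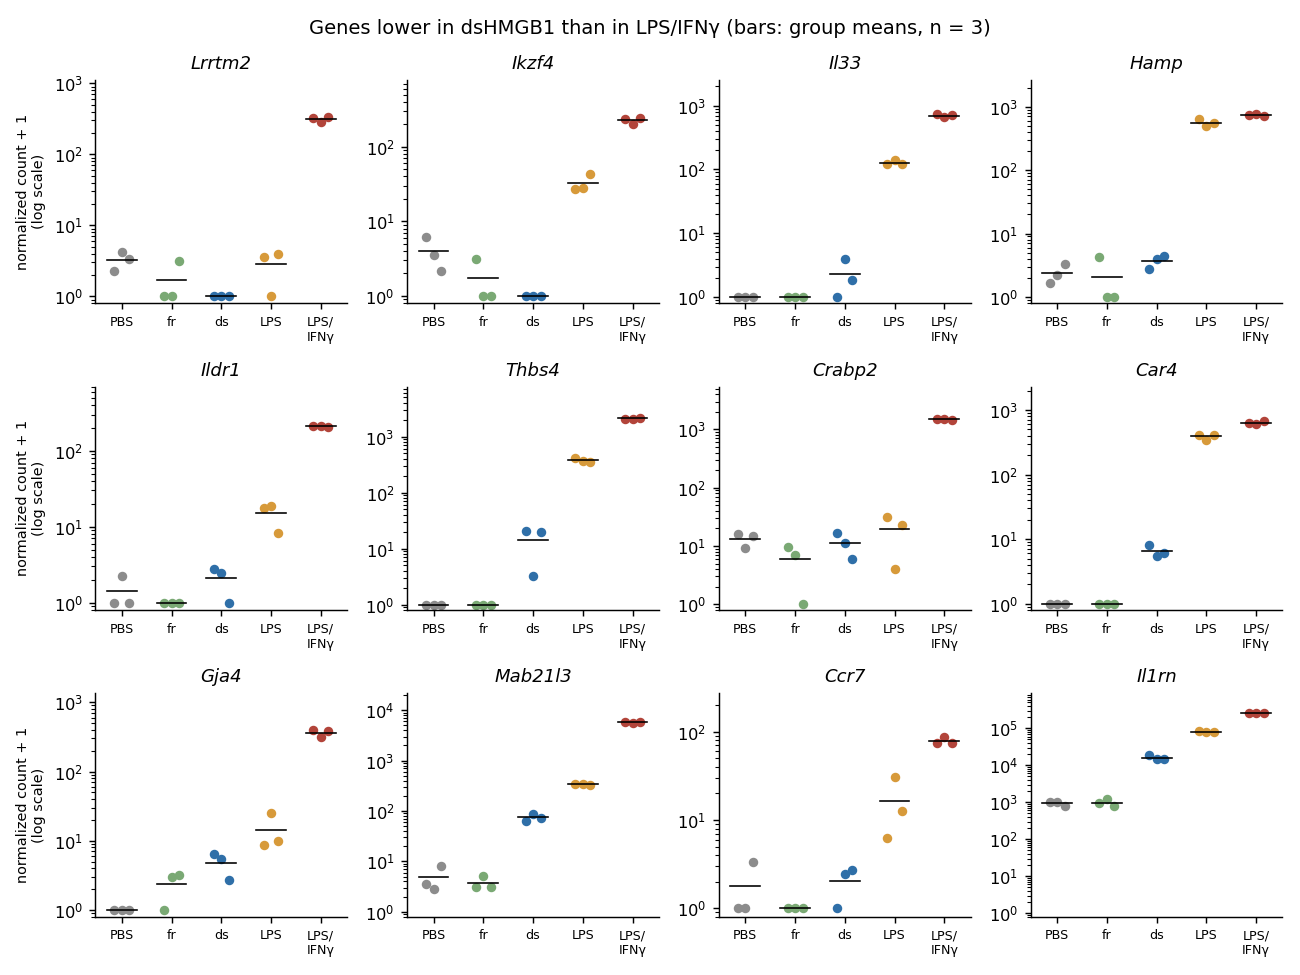
Normalized counts plus 1 (log scale) of 12 genes lower in dsHMGB1 than in LPS/IFNγ, in all 15 libraries by group; points are libraries and bars are group means, n = 3. *Hamp* and *Car4* are high in both LPS groups and near 0 in dsHMGB1, while *Lrrtm2* and *Crabp2* are high in LPS/IFNγ alone among the 5 groups.

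The receptor complex for both ligands was itself among the genes that differed. Of 12 genes of the TLR4 complex and its adaptors, 7 were higher and 3 lower, with a median of 0.431 (4 higher without dsHMGB1 replicate 2; 1 lower with scaling by library size). *Tlr4* had 3439, 5075 and 3665 normalized counts in dsHMGB1 and 1718, 1709 and 1786 in LPS/IFNγ (log2 fold change 1.22, SE 0.28, adjusted p = 0.00335), and dsHMGB1 replicate 2 was the highest. *Cd14*, which hands LPS to the receptor, had 82073, 67846 and 71409 normalized counts in dsHMGB1 and 29939, 27256 and 27472 in LPS/IFNγ (log2 fold change 1.39, SE 0.20, adjusted p = 2.05e-05), and *Ticam2*, the bridging adaptor to TRIF, had 2197, 2528 and 2236 normalized counts in dsHMGB1 and 738, 682 and 750 in LPS/IFNγ (log2 fold change 1.68, SE 0.12, adjusted p = 2.76e-07). *Irak3*, a brake on the pathway, had 2485, 2856 and 3015 normalized counts in dsHMGB1 and 536, 590 and 580 in LPS/IFNγ (log2 fold change 2.29, SE 0.19, adjusted p = 1.15e-06). *Ly96*, which encodes the MD-2 subunit that binds both ligands, was lower, with 1260, 1089 and 918 normalized counts in dsHMGB1 and 2865, 2859 and 2682 in LPS/IFNγ (log2 fold change -1.36, SE 0.15, adjusted p = 3.61e-06). The other members called lower were the adaptor genes *Myd88* and *Ticam1*, which encodes TRIF. The receptor, its co-receptor and the bridging adaptor were thus higher in dsHMGB1. The ligand-binding partner and the MyD88 and TRIF genes were lower.

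Of 9 tested HMGB proteins and other HMGB1 receptors, 4 were higher and 0 lower, with a median of 0.447 (5 and 3 without PBS replicate 3). *Hmgb1* had 493, 554 and 473 normalized counts in dsHMGB1 and 316, 344 and 313 in LPS/IFNγ (log2 fold change 0.64, SE 0.12, adjusted p = 0.0012). *Tlr2* had 51118, 46771 and 48370 normalized counts in dsHMGB1 and 15984, 17333 and 16743 in LPS/IFNγ (log2 fold change 1.55, SE 0.06, adjusted p = 1.64e-08). *Cxcr4*, which binds HMGB1 in complex with CXCL12, had 1599, 1351 and 1530 normalized counts in dsHMGB1 and 371, 406 and 377 in LPS/IFNγ (log2 fold change 1.96, SE 0.10, adjusted p = 5.82e-09), although both groups were far below the PBS mean of 17340 ± 580 (SD, n = 3). *Ager*, the gene of the receptor RAGE, was near the detection limit in both groups, with 8.01, 8.07 and 3.36 normalized counts in dsHMGB1 and 5.3, 10.5 and 4.57 in LPS/IFNγ, and was not called (log2 fold change -0.06, adjusted p = 0.983). NF-κB subunits and inhibitors were lower in 10 of 12 members and higher in 0, with a median of -0.814 (5 lower and 1 higher with scaling by library size). The largest changes were those of *Bcl3*, a nuclear coactivator, with 5374, 4750 and 5030 normalized counts in dsHMGB1 and 14208, 13361 and 14268 in LPS/IFNγ (log2 fold change -1.47, SE 0.12, adjusted p = 1.71e-07), and of *Rel*, with 10876, 15656 and 13220 normalized counts in dsHMGB1 and 32261, 33365 and 32811 in LPS/IFNγ (log2 fold change -1.31, SE 0.26, adjusted p = 0.00187). *Nfkbie*, an inhibitor and target of the pathway, had 18269, 18228 and 18984 normalized counts in dsHMGB1 and 42730, 42337 and 44252 in LPS/IFNγ (log2 fold change -1.22, SE 0.07, adjusted p = 1.02e-07). Inflammasome genes had 4 of 10 higher and 3 lower, with a median of 0.0971 (2 higher without dsHMGB1 replicate 1; 5 higher and 1 lower with scaling by library size). *Nlrc4*, a sensor partner for bacterial flagellin, was the highest, with 521, 735 and 595 normalized counts in dsHMGB1 and 138, 168 and 133 in LPS/IFNγ (log2 fold change 2.08, SE 0.22, adjusted p = 8.34e-06), and *Il18bp*, which neutralises IL-18, the lowest, with 2563, 2345 and 2539 normalized counts in dsHMGB1 and 6248, 6273 and 6197 in LPS/IFNγ (log2 fold change -1.33, SE 0.07, adjusted p = 5.92e-08).

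Genes of lipid handling were examined next. *Nr1h3* (ENSMUSG00000002108, chromosome 2 from 91184061 to 91202834), the liver X receptor alpha that senses oxysterols, had 8162, 7251 and 8010 normalized counts in dsHMGB1 and 1284, 1272 and 1186 in LPS/IFNγ (log2 fold change 2.65, SE 0.15, adjusted p = 5.05e-09). The dsHMGB1 libraries lay above and the LPS/IFNγ libraries below the PBS mean of 3361 ± 849 (SD, n = 3). *Abca1*, the cholesterol exporter and a classical target of that receptor, had 16158, 31922 and 25445 normalized counts in dsHMGB1 and 6670, 7398 and 7468 in LPS/IFNγ (log2 fold change 1.77, SE 0.49, adjusted p = 0.0157). Its dsHMGB1 replicates were widely spread, and the call was lost without dsHMGB1 replicate 2 (adjusted p = 0.0589) or LPS/IFNγ replicate 1 (0.0548). *Abcg1*, the other exporter, had 20225, 21217 and 21290 normalized counts in dsHMGB1 and 25231, 25700 and 26875 in LPS/IFNγ and was not called (log2 fold change -0.31, adjusted p = 0.191; adjusted p = 0.000306, lower, without PBS replicate 3), while *Mylip*, another target, was lower (log2 fold change -1.38, adjusted p = 0.00233). Over the 8 genes of the receptor pathway, 2 were higher and 3 lower, with a median of -0.205 that became 0.118 with scaling by library size (1 lower); 1 was higher without dsHMGB1 replicate 2 or LPS/IFNγ replicate 1.

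Sterol synthesis moved more uniformly, with 14 of 22 genes higher and 2 lower and a median of 0.855. *Sqle* (ENSMUSG00000022351, chromosome 15 from 59315077 to 59331192), which oxidises squalene, had 2051, 2271 and 2306 normalized counts in dsHMGB1 and 648, 648 and 612 in LPS/IFNγ (log2 fold change 1.80, SE 0.08, adjusted p = 1.07e-08). *Fdft1*, which makes squalene, had 1405, 1532 and 1543 normalized counts in dsHMGB1 and 461, 456 and 439 in LPS/IFNγ (log2 fold change 1.72, SE 0.15, adjusted p = 2.91e-07), and *Lss*, which closes the sterol ring, had 1013, 1192 and 1195 normalized counts in dsHMGB1 and 351, 371 and 316 in LPS/IFNγ (log2 fold change 1.71, SE 0.16, adjusted p = 3.43e-06). For these 3, the LPS/IFNγ libraries lay below the PBS means of 1733 ± 80, 1021 ± 196 and 1259 ± 272 (SD, n = 3). The 2 lower members were *Ebp* (log2 fold change -0.99, adjusted p = 0.0158), lost without dsHMGB1 replicate 2 or 3 (adjusted p = 0.058 and 0.0538), and *Insig1* (log2 fold change -0.30, adjusted p = 0.0375), lost without any 1 of the 6 libraries (0.0667 to 0.138) and at 0.02 with scaling by library size. With 1 of the 6 libraries left out, 0 or 1 member was lower, and without PBS replicate 3 it was 4 (1 with scaling by library size). Genes of lipid uptake and storage had 5 of 17 higher and 3 lower, with a median of 0.0443 (8 and 2 with scaling by library size). *Lpl*, lipoprotein lipase, was higher, with 243051, 274400 and 241820 normalized counts in dsHMGB1 and 135075, 133344 and 133537 in LPS/IFNγ (log2 fold change 0.92, SE 0.16, adjusted p = 8.83e-05). *Olr1*, a receptor for oxidised LDL, was lower, with 1621, 1821 and 1697 normalized counts in dsHMGB1 and 14542, 16031 and 15662 in LPS/IFNγ (log2 fold change -3.17, SE 0.09, adjusted p = 3.46e-07). *Cd36*, another such receptor, had 29447, 34208 and 30434 normalized counts in dsHMGB1 and 30819, 31423 and 30813 in LPS/IFNγ and was not called (log2 fold change 0.02, adjusted p = 0.951).

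The antioxidant genes under NRF2 were the most uniform group in this direction, with 11 of 12 higher and 0 lower and a median of 1.25. *Srxn1*, sulfiredoxin, had 11801, 11799 and 12561 normalized counts in dsHMGB1 and 1507, 1616 and 1463 in LPS/IFNγ (log2 fold change 2.98, SE 0.07, adjusted p = 1.61e-10). *Slc7a11*, the cystine importer that feeds glutathione synthesis, had 17875, 25168 and 18757 normalized counts in dsHMGB1 and 3918, 3895 and 3873 in LPS/IFNγ (log2 fold change 2.40, SE 0.17, adjusted p = 3.13e-07), and *Hmox1*, heme oxygenase 1, had 16544, 14470 and 15853 normalized counts in dsHMGB1 and 3379, 3517 and 3512 in LPS/IFNγ (log2 fold change 2.17, SE 0.09, adjusted p = 9.65e-10). *Nfe2l2*, which encodes NRF2 itself, had 28278, 32061 and 31531 normalized counts in dsHMGB1 and 12264, 11860 and 12091 in LPS/IFNγ (log2 fold change 1.34, SE 0.15, adjusted p = 2.01e-05). The dsHMGB1 level of *Hmox1* was that of PBS (15007 ± 1693, SD, n = 3), whereas *Slc7a11* was above its PBS mean of 633 ± 148 in both groups. The call of *Txnrd1* (log2 fold change 0.59, adjusted p = 0.0497) was lost without any 1 of the 6 libraries (adjusted p = 0.0637 to 0.131). In dsHMGB1 against LPS, too, 11 of the 12 were called higher and 0 lower, beside 12.3% of protein-coding genes called higher, and in LPS against LPS/IFNγ 5 were higher and 1 lower, beside 11.2% and 12.5%. The dsHMGB1 and LPS libraries are shared between these comparisons.

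Genes of energy metabolism were mixed. Of 18 glycolysis genes 6 were lower and 1 higher, with a median of -0.312 that became 0.0109 with scaling by library size (4 and 4). Without PBS replicate 3, 12 were lower and 4 higher. *Hk2*, an inducible hexokinase, had 6302, 6506 and 5747 normalized counts in dsHMGB1 and 31391, 32661 and 31228 in LPS/IFNγ (log2 fold change -2.36, SE 0.15, adjusted p = 1.3e-07), and *Pfkp*, a phosphofructokinase, had 14971, 15651 and 16200 normalized counts in dsHMGB1 and 61381, 61188 and 61579 in LPS/IFNγ (log2 fold change -1.98, SE 0.10, adjusted p = 3.71e-08). *Hif1a*, the factor that drives many glycolytic genes, had 5721, 7959 and 6853 normalized counts in dsHMGB1 and 24704, 25119 and 24086 in LPS/IFNγ (log2 fold change -1.85, SE 0.33, adjusted p = 0.000835). These were lower in every dsHMGB1 library than in any LPS/IFNγ library. The one member higher was *Aldoa* (log2 fold change 0.36, adjusted p = 0.0272), and leaving out dsHMGB1 replicate 1 or 3 or LPS/IFNγ replicate 1, 2 or 3 ended its call (adjusted p = 0.0737, 0.0696, 0.058, 0.0693 and 0.0515). Genes of the TCA cycle and itaconate had 3 of 18 higher and 0 lower, with a median of 0.167 (10 and 2 without PBS replicate 3, 13 and 0 with scaling by library size), and *Idh1* was the highest (log2 fold change 0.83, adjusted p = 2.41e-06). *Acod1*, which makes itaconate, had 280255, 293660 and 290028 normalized counts in dsHMGB1 and 362778, 362378 and 373367 in LPS/IFNγ and was not called (log2 fold change -0.35, adjusted p = 0.286). Oxidative phosphorylation had 0 of 19 higher and 1 lower (4 and 2 without PBS replicate 3; 6 and 0 with scaling by library size), and its median was 0.0638. The lower gene was *Atp5a1* (log2 fold change -0.31, adjusted p = 0.00621; 0.01 with scaling by library size). Fatty acid oxidation had 4 of 13 higher and 2 lower (median 0.129; 6 and 4 without PBS replicate 3, 7 and 1 with scaling by library size), with *Cpt1a*, the gate for mitochondrial fatty acid import, the highest (log2 fold change 0.97, adjusted p = 0.0143).

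*Marco* (ENSMUSG00000026390, chromosome 1 from 120474538 to 120505024), a scavenger receptor for bacteria and particles, had 3260, 3447 and 3487 normalized counts in dsHMGB1 and 229, 234 and 228 in LPS/IFNγ (log2 fold change 3.88, SE 0.32, adjusted p = 1e-06). Both LPS groups, with LPS at 428 ± 59.7 (SD, n = 3), lay far below dsHMGB1. *Mertk*, which clears apoptotic cells, was lower, with 5098, 7005 and 6470 normalized counts in dsHMGB1 and 28842, 29430 and 29222 in LPS/IFNγ (log2 fold change -2.24, SE 0.34, adjusted p = 0.000299). Of 12 scavenger and efferocytosis receptors 3 were higher and 3 lower, with a median of 0.0343 (3 and 2 of the 11 protein-coding members, with a median of 0.0527, as *Clec7a* is annotated as a polymorphic pseudogene). Of 10 tested Siglec and CD300 receptors 3 were higher and 1 lower, with a median of 0.433 (6 and 2 without PBS replicate 3). *Siglece*, an inhibitory receptor for sialic acid, had 237, 253 and 301 normalized counts in dsHMGB1 and 15.9, 26.3 and 17.4 in LPS/IFNγ (log2 fold change 3.73, SE 0.61, adjusted p = 0.00032). *Cd300lb* had 2805, 3261 and 3496 normalized counts in dsHMGB1 and 297, 225 and 213 in LPS/IFNγ (log2 fold change 3.70, SE 0.29, adjusted p = 8.75e-07), and here both groups were below the PBS mean of 18719 ± 8096 (SD, n = 3). *Cd300e*, an activating member outside the list, had 226, 319 and 289 normalized counts in dsHMGB1 and 22.3, 18.9 and 18.3 in LPS/IFNγ (log2 fold change 3.81, SE 0.31, adjusted p = 1.2e-06). Fc gamma receptors had 2 of 5 genes lower and 1 higher, with a median of -0.129 that became 0.194 with scaling by library size (2 higher with that scaling or without PBS replicate 3). *Fcgr3*, an activating receptor for IgG, had 14558, 13845 and 15037 normalized counts in dsHMGB1 and 62686, 60368 and 62029 in LPS/IFNγ (log2 fold change -2.09, SE 0.07, adjusted p = 4.25e-10), and *Fcgr4*, another, was lower by more (7337, 6481 and 6720 in dsHMGB1 and 56018, 52140 and 55944 in LPS/IFNγ, adjusted p = 4.78e-09). The higher one, *Fcgr1* (log2 fold change 0.34, adjusted p = 0.0255), lost its call without dsHMGB1 replicate 1 or 3 (adjusted p = 0.0716 and 0.0643) or LPS/IFNγ replicate 1 or 2 (0.0558 and 0.0812).

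Receptors of chemokines and integrins had 7 of 14 tested members lower and 2 higher, with a median of -1.18. *Ccr7*, which guides cells to lymph nodes, had 0, 1.47 and 1.68 normalized counts in dsHMGB1 and 74.2, 86.3 and 73.1 in LPS/IFNγ (log2 fold change -6.17, SE 0.95, adjusted p = 0.000243), close to the detection limit in dsHMGB1. *Ccr1*, a receptor for several CC chemokines, had 1232, 1047 and 1171 normalized counts in dsHMGB1 and 10192, 10794 and 10993 in LPS/IFNγ (log2 fold change -3.21, SE 0.14, adjusted p = 6.87e-09). Both receptors were lower in all 3 dsHMGB1 libraries. *Ccr2*, the receptor for CCL2, was also lower, with 48, 66 and 37.8 normalized counts in dsHMGB1 and 533, 496 and 579 in LPS/IFNγ (log2 fold change -3.40, SE 0.23, adjusted p = 2.55e-07), while its LPS mean of 15.8 ± 5.3 (SD, n = 3) lay below both. *Cx3cr1*, the fractalkine receptor, was higher from low levels, with 32.9, 38.9 and 58.8 normalized counts in dsHMGB1 and 1.06, 10.5 and 11 in LPS/IFNγ (log2 fold change 2.51, SE 0.42, adjusted p = 0.000874). Lysosomal genes had 3 of 22 higher and 1 lower, with a median of 0.0506 (8 and 4 without PBS replicate 3, 2 lower without dsHMGB1 replicate 1, and 15 and 0 with scaling by library size). *Tfeb*, a master regulator of lysosome genes, was the highest, with 2750, 2256 and 2546 normalized counts in dsHMGB1 and 697, 740 and 725 in LPS/IFNγ (log2 fold change 1.80, SE 0.21, adjusted p = 4.02e-06), although its PBS mean of 7649 ± 2822 (SD, n = 3) was above both groups.

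Markers of alternative activation did not move as a group. Of 10 tested members 3 were higher and 4 lower, with a median of -0.679 (3 and 2 with scaling by library size), and *Chil3*, *Retnla* and *Mgl2*, which define the state in mouse macrophages, did not pass the filter on low counts. *Il4ra*, the IL-4 receptor chain, was lower, with 6318, 5822 and 6260 normalized counts in dsHMGB1 and 32335, 31174 and 31076 in LPS/IFNγ (log2 fold change -2.36, SE 0.06, adjusted p = 5.11e-10). *Egr2*, a transcription factor of that state, was higher, with 1576, 1525 and 1603 normalized counts in dsHMGB1 and 495, 526 and 426 in LPS/IFNγ (log2 fold change 1.70, SE 0.14, adjusted p = 1e-06), as was *Pparg*, with 813, 765 and 846 normalized counts in dsHMGB1 and 329, 434 and 390 in LPS/IFNγ (log2 fold change 1.07, SE 0.13, adjusted p = 6.91e-06). For both factors the PBS means of 4224 ± 781 and 4692 ± 677 (SD, n = 3) exceeded either group. *Mrc1*, the mannose receptor, was lower (log2 fold change -0.85, adjusted p = 0.0106), a call that was lost without dsHMGB1 replicate 1 (adjusted p = 0.0532).

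Genes of DNA replication and mismatch repair were higher in 16 of 26 members and lower in 2, with a median of 0.719 (21 and 1 with scaling by library size). *Pold1*, the catalytic subunit of a replicative polymerase, had 285, 284 and 326 normalized counts in dsHMGB1 and 122, 127 and 108 in LPS/IFNγ (log2 fold change 1.33, SE 0.14, adjusted p = 3.5e-06). Here PBS was higher than either group, with a mean of 650 ± 49.3 normalized counts (SD, n = 3). *Pcna*, the sliding clamp of the same polymerase, was opposite, with 10196, 9165 and 9416 normalized counts in dsHMGB1 and 24346, 22790 and 24454 in LPS/IFNγ (log2 fold change -1.31, SE 0.10, adjusted p = 1.02e-07). The other lower member was *Tyms* (log2 fold change -0.56, adjusted p = 0.00935), whose call was lost without LPS/IFNγ replicate 1 (adjusted p = 0.0538). Mitosis and spindle genes had 5 of 17 higher and 1 lower, with a median of 0.324, but 2 higher without dsHMGB1 replicate 2 or 3 and 3 without LPS/IFNγ replicate 1 or 3 (0 lower without dsHMGB1 replicate 3; 8 and 2 without PBS replicate 3; 10 and 0, with a median of 0.646, with scaling by library size). *Aurkb* and *Ccnb1*, a mitotic kinase and a cyclin, were called higher in each of these (1.33, adjusted p = 0.00018, and 1.06, adjusted p = 0.00218, with all libraries), from levels below 70 normalized counts.

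**Figure D4:**
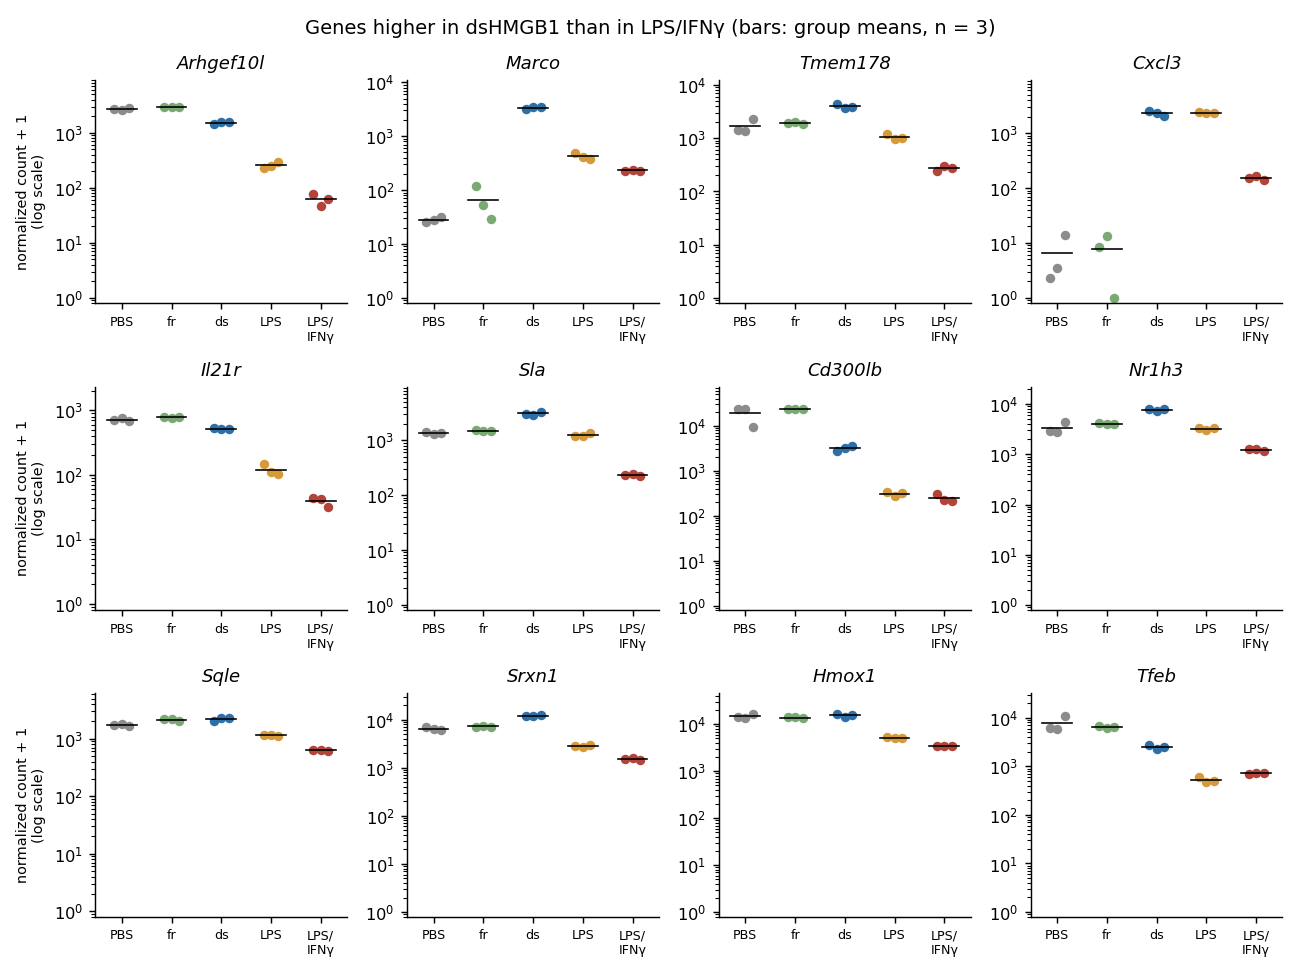
Normalized counts plus 1 (log scale) of 12 genes higher in dsHMGB1 than in LPS/IFNγ, in all 15 libraries by group; points are libraries and bars are group means, n = 3. *Marco* is highest in dsHMGB1, *Cxcl3* is as high in LPS as in dsHMGB1, and *Arhgef10l*, *Cd300lb* and *Tfeb* are highest in PBS and frHMGB1.

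Secreted products were mixed. Complement and defence genes had 6 of 15 lower and 3 higher, with a median of -0.268 that became 0.0549 with scaling by library size. *Hamp* (ENSMUSG00000050440, chromosome 7 from 30942368 to 30944032), the gene of the iron hormone hepcidin, had 1.78, 2.93 and 3.36 normalized counts in dsHMGB1 and 748, 762 and 718 in LPS/IFNγ (log2 fold change -8.09, SE 0.48, adjusted p = 4.78e-09). It was near 0 in all dsHMGB1 libraries and at 559 ± 69 (SD, n = 3) in LPS. *C1ra*, a protease of the classical complement pathway, was lower, with 401, 423 and 459 normalized counts in dsHMGB1 and 2327, 2419 and 2518 in LPS/IFNγ (log2 fold change -2.50, SE 0.11, adjusted p = 5.05e-09). *Lcn2*, lipocalin 2, which traps bacterial siderophores, was higher, with 195, 158 and 225 normalized counts in dsHMGB1 and 53, 40 and 41.1 in LPS/IFNγ (log2 fold change 2.11, SE 0.24, adjusted p = 0.000201), and so was the acute phase gene *Saa3*, with 32022, 20496 and 23246 normalized counts in dsHMGB1 and 3853, 3408 and 3451 in LPS/IFNγ (log2 fold change 2.82, SE 0.71, adjusted p = 0.00943). Prostaglandin genes had 3 of 11 higher and 2 lower, with a median of 0.0948. *Ptgs2*, the inducible cyclooxygenase, was lower, with 54427, 69715 and 54908 normalized counts in dsHMGB1 and 159266, 170729 and 165575 in LPS/IFNγ (log2 fold change -1.47, SE 0.25, adjusted p = 0.000792), whereas *Ptges*, the synthase that turns its product into prostaglandin E2, was higher, with 2552, 2132 and 2574 normalized counts in dsHMGB1 and 525, 535 and 567 in LPS/IFNγ (log2 fold change 2.16, SE 0.12, adjusted p = 9.45e-09). Matrix metalloproteinases and their inhibitors had 3 of 11 higher and 4 lower (2 lower without dsHMGB1 replicate 2), with a median of -0.111 that became 0.212 with scaling by library size. The collagenase *Mmp13* was lower, with 26947, 24017 and 23748 normalized counts in dsHMGB1 and 134688, 132708 and 137348 in LPS/IFNγ (log2 fold change -2.44, SE 0.11, adjusted p = 2.62e-09), and the gelatinase *Mmp9* higher, with 4779, 5010 and 5035 normalized counts in dsHMGB1 and 1892, 1930 and 2020 in LPS/IFNγ (log2 fold change 1.34, SE 0.11, adjusted p = 1.85e-06).

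The 10 genes that differed most in each direction, among called protein-coding genes averaging 100 normalized counts or more whose groups were separate, included several outside the groups above. *Lrrtm2*, best known as a synaptic adhesion protein, had 0 normalized counts in all dsHMGB1 libraries and 321, 281 and 335 in LPS/IFNγ, which is at least 384-fold lower against a floor of 3 counts over the group (adjusted p = 4.83e-07). *Ikzf4*, a zinc finger factor of the Ikaros family, likewise had 0 and 233, 202 and 239, at least 277-fold lower (adjusted p = 8.68e-07). These floors cover counting error only, and reads copied by PCR are not independent molecules. LPS held the first at 1.84 ± 1.61 and the second at 31.8 ± 9.4 (SD, n = 3). *Ildr1*, a tricellular junction protein, had 1.78, 1.47 and 0 normalized counts in dsHMGB1 and 213, 214 and 207 in LPS/IFNγ (log2 fold change -7.60, SE 0.76, adjusted p = 2.49e-06). *Thbs4*, a matrix thrombospondin, had 19.6, 2.2 and 18.5 normalized counts in dsHMGB1 and 2096, 2080 and 2134 in LPS/IFNγ (log2 fold change -7.32, SE 0.43, adjusted p = 3.34e-06), and *Crabp2*, a retinoic acid carrier, had 16, 10.3 and 5.04 normalized counts in dsHMGB1 and 1503, 1485 and 1446 in LPS/IFNγ (log2 fold change -7.15, SE 0.55, adjusted p = 6.91e-07). In each of these the dsHMGB1 values were a small fraction of those in LPS/IFNγ. *Car4*, a membrane carbonic anhydrase, had 7.12, 4.4 and 5.04 normalized counts in dsHMGB1 and 638, 608 and 666 in LPS/IFNγ (log2 fold change -6.87, SE 0.35, adjusted p = 2.22e-08). *Gja4*, a gap junction connexin, had 5.34, 4.4 and 1.68 normalized counts in dsHMGB1 and 398, 314 and 378 in LPS/IFNγ (log2 fold change -6.58, SE 0.49, adjusted p = 1.71e-06), and *Mab21l3* had 63.2, 87.3 and 70.6 normalized counts in dsHMGB1 and 5909, 5596 and 5835 in LPS/IFNγ (log2 fold change -6.28, SE 0.14, adjusted p = 3.27e-10). In LPS against LPS/IFNγ, which shares the LPS/IFNγ libraries, the log2 fold change was -6.29 for *Crabp2* and -4.77 for *Gja4* (adjusted p = 3.15e-06 and 1.61e-05), but -0.71 for *Car4* (adjusted p = 0.00682).

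In the other direction, *Arhgef10l*, a guanine nucleotide exchange factor, led with 1476, 1554 and 1595 normalized counts in dsHMGB1 and 75.3, 46.3 and 62.1 in LPS/IFNγ (log2 fold change 4.65, SE 0.14, adjusted p = 3.24e-10). *Rasgrp1*, an exchange factor for Ras, had 506, 831 and 631 normalized counts in dsHMGB1 and 62.6, 29.5 and 33.8 in LPS/IFNγ (log2 fold change 3.97, SE 0.36, adjusted p = 1.8e-05). *Tmem178*, a membrane protein of the endoplasmic reticulum, had 4347, 3703 and 3818 normalized counts in dsHMGB1 and 243, 300 and 271 in LPS/IFNγ (log2 fold change 3.87, SE 0.19, adjusted p = 3.74e-09). These were higher in every dsHMGB1 library, with *Rasgrp1* the most variable among replicates. *Il21r*, the IL-21 receptor, had 528, 514 and 508 normalized counts in dsHMGB1 and 42.4, 41 and 31.1 in LPS/IFNγ (log2 fold change 3.77, SE 0.17, adjusted p = 3.05e-09). *Sla*, an adaptor that dampens receptor signalling, had 3037, 2894 and 3331 normalized counts in dsHMGB1 and 231, 240 and 225 in LPS/IFNγ (log2 fold change 3.74, SE 0.10, adjusted p = 6.34e-11), and *Fam117a* had 558, 619 and 654 normalized counts in dsHMGB1 and 36.1, 50.5 and 46.6 in LPS/IFNγ (log2 fold change 3.78, SE 0.19, adjusted p = 4.39e-09). For *Arhgef10l*, *Il21r* and *Fam117a* the PBS means (2713 ± 120, 719 ± 41.3 and 2103 ± 301, SD, n = 3) were at or above dsHMGB1, and for *Sla* (1337 ± 44.2) below it.

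The 10 most abundant called genes with a log2 fold change past 1, ranked by abundance per exon length, included *Gbp2*, *Cxcl9*, *Ccl4*, *Isg15*, *Il12b* and *Il27*, described above. The remaining ones were all lower in dsHMGB1. *Icam1*, an adhesion molecule for leukocytes, had 187446, 192130 and 199404 normalized counts in dsHMGB1 and 462665, 459771 and 476267 in LPS/IFNγ (log2 fold change -1.27, SE 0.28, adjusted p = 0.0033), and *Sdc4*, a heparan sulfate proteoglycan, had 60310, 47663 and 45956 normalized counts in dsHMGB1 and 272665, 266625 and 277017 in LPS/IFNγ (log2 fold change -2.41, SE 0.20, adjusted p = 2.03e-07). *Ifitm3*, which blocks viral entry, had 38825, 28883 and 31712 normalized counts in dsHMGB1 and 69681, 66782 and 71314 in LPS/IFNγ (log2 fold change -1.06, SE 0.30, adjusted p = 0.00788), and *Calhm6*, a channel protein of macrophages, had 26496, 19846 and 21164 normalized counts in dsHMGB1 and 99745, 95696 and 100776 in LPS/IFNγ (log2 fold change -2.13, SE 0.35, adjusted p = 0.000199).

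The genes that the study chose for qPCR were picked on these samples, so their counts are not independent evidence of a direction. Of 14 tested, 6 were called higher and 7 lower, with a median of -0.283 (0.0412 with scaling by library size), and without LPS/IFNγ replicate 1 the number higher was 3. Those not yet described included genes with few counts. *Cnr2*, the cannabinoid receptor of immune cells, had 47.2, 89.5 and 68.1 normalized counts in dsHMGB1 and 175, 197 and 203 in LPS/IFNγ (log2 fold change -1.48, SE 0.27, adjusted p = 0.000587), against 2783 ± 798 in PBS (SD, n = 3). *Pf4*, platelet factor 4, had 529, 433 and 475 normalized counts in dsHMGB1 and 145, 127 and 144 in LPS/IFNγ (log2 fold change 1.78, SE 0.50, adjusted p = 0.0115). *Rasgrf1* had 13.3, 23.5 and 25.2 normalized counts in dsHMGB1 and 2.12, 2.1 and 5.48 in LPS/IFNγ (log2 fold change 2.65, SE 0.81, adjusted p = 0.0164), a call lost without dsHMGB1 replicate 2 or 3 or LPS/IFNγ replicate 1 or 2 (adjusted p = 0.0533, 0.0597, 0.0749 and 0.0763), and its edgeR log2 fold change of 2.62 became 3.25 without LPS/IFNγ replicate 3. *Madcam1* had 22.2, 5.14 and 31.9 normalized counts in dsHMGB1 and 2.12, 0 and 3.66 in LPS/IFNγ (log2 fold change 3.33, SE 1.09, adjusted p = 0.0235), a call lost without dsHMGB1 replicate 1 or 3 or LPS/IFNγ replicate 1 or 2 (adjusted p = 0.0575, 0.098, 0.0714 and 0.0853), and its edgeR log2 fold change of 3.25 became 4.10 without LPS/IFNγ replicate 3. Both were carried by few reads in LPS/IFNγ. *Lrrc17* had 2 counts in dsHMGB1 and 0 in LPS/IFNγ, so no fold is given. In the paper, qPCR on individual mice gave similar patterns for *Il12b*, *Cxcl9*, *Hamp*, *Ccr7* and *Il33*, among others. For *Lpl*, *Pf4* and *Abca1* the paper reports that qPCR did not match the sequencing and that dsHMGB1 lowered them. Those qPCR values were relative to PBS, not to LPS/IFNγ.

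**Figure D5:**
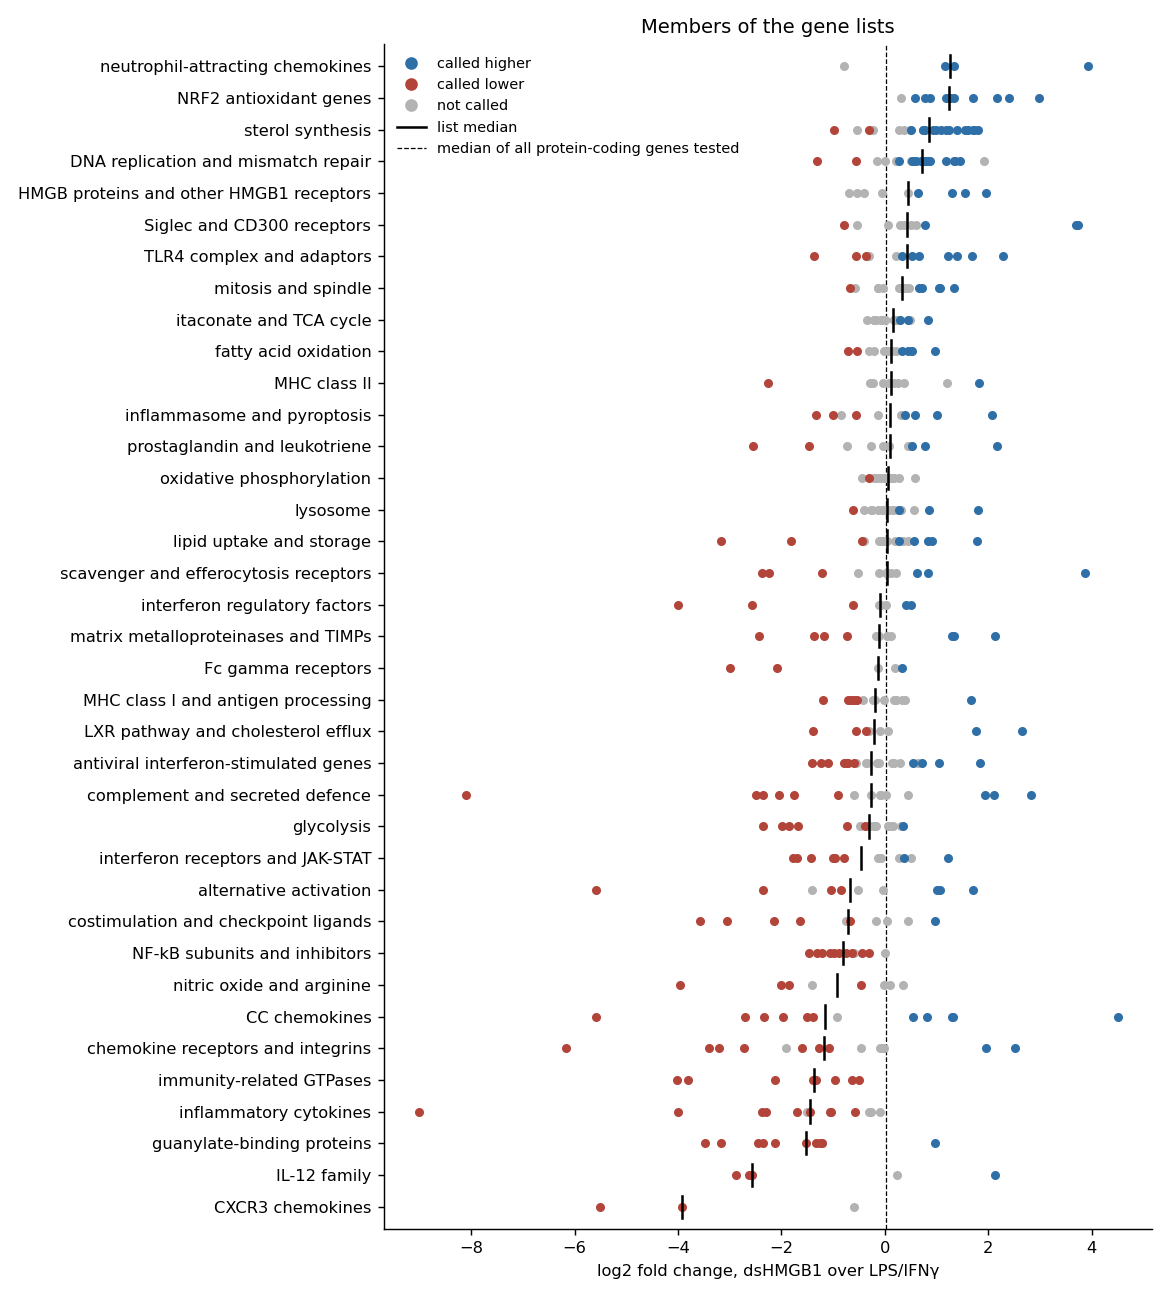
Log2 fold change of dsHMGB1 over LPS/IFNγ (x axis) of every tested member of the gene groups (y axis, ordered by median); blue, red and grey points are members called higher, lower and not called, short black lines are medians, and the dashed line is the median of all protein-coding genes tested (0.0271). Medians run from -3.93 for the ligands of CXCR3 to 1.26 for the neutrophil-attracting chemokines, and the medians from -0.312 to -0.0937 take a positive sign with scaling by library size.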

How the data were processed

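RNA was sequenced as stranded, paired-end mRNA libraries from 5 conditions with 3 replicates each. The authors, by their own notes, used CASAVA, STAR and DESeq2 with the GRCm38 genome, and they deposited a table of raw counts per gene. The deposited values are counts, whole numbers in every library, and which program counted the reads, over which annotation, is not stated in the sources used here. All 15 libraries were fitted together with edgeR 4.0.16 (limma 3.58.1, R 4.3.3): filterByExpr with a minimum count of 10 and a minimum total count of 15, TMM normalization, a quasi-likelihood F test of dsHMGB1 against LPS/IFNγ, two-sided, and Benjamini-Hochberg adjustment over the 16919 genes tested. Normalized counts and unshrunken log2 fold changes with standard errors came from DESeq2 1.42.0. Gene types and positions came from GENCODE M21 (GRCm38), which held 51661 of the 51763 genes. Promoters were RefSeq's for GRCm38.p6. Depth ran from 65905281 to 80925478 counts in the 6 libraries. Precision is that of the replicates, and floors for genes at 0 use 3 counts over the group.

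A rule set which genes could be named. It took the 10 protein-coding genes with the largest log2 fold change in each direction among those called. These had to average 100 normalized counts or more in groups that do not overlap. It also took the 10 most abundant called genes with a log2 fold change past 1 in size. From each gene list it took the called members with the largest change, up to 4 in each direction, and the members that define the list. The study's qPCR genes were taken too. The text does not describe every gene that the rule covers, and leaves out *Lif*, *Ccl8* and *Socs1*, for example. The rule did not set the choice among them. A further 23 genes, such as *Cxcl10*, *H2-Ab1*, *Tnf*, *Gbp7*, *Irgm2* and the most abundant marker genes, lie outside the rule and were chosen after their values were seen. Members of the comparison and the gene lists were chosen with earlier results of these data known. Alternatives were another test, other scalings, filters and fits, a test against a fold change of 2, a replicate block, and single libraries left out.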

Additional observations from a re-analysis of the deposited data

How the results depend on the processing

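No gene called with the main settings was called in the opposite direction under any setting. With each of the 6 libraries left out in turn, the protein-coding genes called higher numbered 2063 to 2223 and those called lower 2017 to 2187 (2517 and 2490 with all libraries). Over all gene types the ranges were 2266 to 2432 and 2268 to 2447, beside 2797 and 2824. Genes with a log2 fold change above 2 numbered 278 to 329 and those below -2 numbered 483 to 536, beside 265 and 472. The DESeq2 Wald test gave 2773 higher and 2869 lower protein-coding genes, RLE normalization 2441 and 2605, and 2588 and 2698 came from fitting only protein-coding genes. Without a filter on low counts the numbers were 2117 and 2307, and with at least 1 CPM in 3 libraries 2484 and 2500. With the replicate number as a replicate block they were 2406 and 2407 (2651 and 2720 over all types), and residuals of same-numbered libraries correlated across genes at 0.0147, 0.0672 and -0.0301, beside -0.0661 to 0.0522 for libraries with different numbers. Larger changes came from other settings. The 6 libraries alone gave 3864 higher and 3657 lower protein-coding genes, and 4296 and 4284 genes of all types. Leaving out PBS replicate 3 gave 4347 and 3820, and 4840 and 4398. That replicate correlated with the other PBS libraries at 0.9389 and 0.934, and both settings remove its spread from the shared estimate. The test against a fold change of 2 asks for more and gave 356 and 617, and 419 and 723. Scaling by library size, chosen after seeing the data, gave 4357 and 1439, and 4806 and 1663, since it leaves out the TMM factors (dsHMGB1 0.9755 to 0.9873, LPS/IFNγ 0.7852 to 0.8037). Without a filter, 644 protein-coding genes lay above 2 and 1140 below -2, and with 1 CPM in 3 libraries 152 lay above 2, because the filters keep different numbers of genes with few counts. For the 218 genes that the rule covers, described above or not, 3221 of 3474 values over 16 settings kept direction and call. The call was lost in 251 (106 of them in the test against a fold change of 2). Another 2 reversed: *Insig1* at 0.02 and *Atp5a1* at 0.01 under scaling by library size. Of 365 values for the 23 genes named outside the rule, 307 kept direction and call, 26 lost the call, 31 gained it and 1 reversed, *Gch1* at 0.30 under the same scaling. The cause was not tested. Depth limits the genes near 0 in one group, such as *Il33*, *Ccr7* and *Ikzf4*, whose fold changes rest on few counts.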

Other observations

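Replicates were technical, from a single pool of the cells of 5 mice, so the tests do not reach differences between mice. The groups differed in ligand and in IFNγ together, dsHMGB1 was a gift of a laboratory and the LPS a commercial product, and 1 dose and 1 time point of each were measured, so dose and timing were not tested. The LPS concentration of the LPS/IFNγ group is given as 1000 and as 100 ng/mL. Counts are of RNA, not protein. Library, culture and group cannot be told apart beyond the replicates. Differences in the make-up of the cultures, such as the dendritic cell markers that were higher in LPS/IFNγ than in dsHMGB1 or PBS, were not tested.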
